A study of Homo sapiens with 12 samples.

Results

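Among the genes counted in HCT 116p53-/- cells and in cells labelled uL3ΔHCT 116p53-/-, 8 were grouped because they were nearly silent in the first line and well expressed in the second: FABP4, OSTN, STC1, SERPINF1, AMIGO2, ADAMTS9, GEM and PRR5L. They are 8 of the 60617 genes in the files and 8 of the 15692 genes that passed the filter on low counts. They were picked by their levels in vehicle-treated HCT 116p53-/- libraries and in the libraries labelled uL3Δ, with no numeric limit stated, so that the difference between the lines is what chose them and is given below as a description, without a test. HCT 116p53-/- is a human colon cancer line that carries a deletion of p53, here called parental. The libraries labelled uL3Δ come from a subline derived from these cells. The sample labels call it a knockout of RPL3, the gene for ribosomal protein uL3, the study's methods call it stably silenced for uL3, and how the line was changed was not checked here beyond the level of RPL3. Each line was treated with vehicle or with 5 nM actinomycin D (Act D), which at low dose blocks RNA polymerase I and so the synthesis of ribosomal RNA, for 24 h. Each of the 4 groups had 3 libraries, 12 in all, which the labels call biological replicates. As nothing says more about how the cultures were separated, p-values measure only the spread between these libraries.

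The total count per library was between 10087925 and 21138886. RPL3 was not lower in the libraries labelled uL3Δ: it lay between 1121 and 1151 CPM (counts scaled to library size) in parental vehicle libraries and between 1188 and 1337 CPM in uL3Δ vehicle libraries, a log2 fold change of 0.13 (SE 0.08, adjusted p = 0.155). With Act D the log2 fold change was 0.12 (SE 0.08, adjusted p = 0.187). Of the 12 colon epithelial markers listed, 7 could be tested, and with vehicle 6 were lower and 1 was higher in the uL3Δ libraries. Of 9 tested fibroblast and mesenchymal markers, 7 were higher and 1 was lower. The summed level of the mesenchymal list was between 32.2 and 39.0 CPM in parental vehicle libraries and between 2337 and 2411 CPM in uL3Δ vehicle libraries, with the largest part from VIM, the mesenchymal filament vimentin, at 19.7 to 25.9 CPM against 2211.0 to 2272 CPM. The adhesion protein gene CDH1 went the other way, from 64.3 to 68.8 CPM down to 0.161 to 0.701 CPM, while EPCAM was at 145 to 168 CPM and 32.9 to 37.1 CPM. The summed colon epithelial list was at 2480.5 to 2682.2 CPM in parental and 1591.6 to 1784.4 CPM in uL3Δ vehicle libraries. These markers moved with the 8 genes in the same libraries, and their part in the levels below was not tested. All libraries of a line share that line's history, so that the uL3 label and any other difference between the lines cannot be told apart. In bulk RNA, fewer cells that express a gene and less RNA per cell cannot be told apart either.

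The 8 genes do not form a pathway. FABP4 encodes a cytosolic carrier of fatty acids that is known from adipocytes and macrophages and is a classical target of the nuclear receptor PPARγ. OSTN (osteocrin, also called musclin) and STC1 (stanniocalcin 1) encode secreted factors: OSTN binds the clearance receptor for natriuretic peptides, and STC1 is a glycoprotein that inhibits pappalysins, the proteases that release insulin-like growth factors from their binding proteins. SERPINF1 encodes pigment epithelium-derived factor, a secreted serpin that does not inhibit proteases and restrains the growth of blood vessels. ADAMTS9 encodes a secreted metalloprotease that cuts matrix proteoglycans. AMIGO2 encodes a membrane protein with leucine-rich repeats that mediates adhesion between cells. GEM encodes a small GTPase of the RGK family, which holds back voltage-gated calcium channels, and PRR5L encodes a partner of the kinase complex mTORC2.

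Promoter windows, running from 250 bases before to 50 bases after an annotated start, were taken from RefSeq on GRCh38.p14. They covered 3 of the 8 genes, with 1 window for OSTN, 2 for AMIGO2 and 3 for PRR5L. FABP4, STC1, SERPINF1, ADAMTS9 and GEM were not analysed here. The 250 bases before the start are shown for OSTN, the second of the 8 by level per length (TPM) in uL3Δ vehicle libraries, and for AMIGO2, the one member past the threshold with Act D in the uL3Δ libraries. Capitals mark letters that match a searched motif on either strand, among them TATAAA, the core of a TATA box, and GGGCGG, the core of a GC box. The others were TGACTCA and the letters TGACGTCA, and also GGAATG. No marked matches overlap.
OSTN, chr3:191198991-191199240, plus strand: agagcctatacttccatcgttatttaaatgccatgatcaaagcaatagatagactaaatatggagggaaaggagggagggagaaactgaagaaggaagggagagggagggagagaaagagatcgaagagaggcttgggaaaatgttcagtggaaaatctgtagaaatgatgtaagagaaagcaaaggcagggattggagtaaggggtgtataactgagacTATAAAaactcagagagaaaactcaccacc
AMIGO2, chr12:47079952-47080201, minus strand: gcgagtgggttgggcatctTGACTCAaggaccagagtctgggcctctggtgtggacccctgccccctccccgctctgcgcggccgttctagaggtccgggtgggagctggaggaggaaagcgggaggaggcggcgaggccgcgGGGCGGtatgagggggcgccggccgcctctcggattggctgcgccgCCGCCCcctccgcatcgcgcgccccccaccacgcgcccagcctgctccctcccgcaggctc

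These starts are built very differently. The OSTN window had a GC content of 42.0% and a ratio of observed to expected CpG of 0.188, below the medians of 58.7% and 0.579 over all 35116 windows. Its TATAAA began 30 bases before the start, and 11.5% of all windows hold these letters. The AMIGO2 window had a GC content of 75.3% and a CpG ratio of 0.753. Its TGACTCA, the letters bound by AP-1 factors, began 231 bases before the start and occurs in 4.95% of all windows. Its 2 GGGCGG matches began 107 and 61 bases before the start, and 45.0% of all windows hold that motif. The 3 PRR5L windows had GC contents of 49.7%, 46.0% and 50.7%. TATAAA matched in the first on the opposite strand only, as TTTATA along the gene, beginning 27 bases before its start. The OSTN match is on the strand of the gene. CANNTG, the E-box letters, not marked above, which 68.7% of all windows hold, was in all 3 PRR5L windows and in none of the windows of the others. TGACGTCA, found in 1.85% of all windows, was in none of the 6. A match is a description of letters and not a binding site.

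On the hg38 build the genes lie on 5 chromosomes. FABP4 (chr8:81478419-81483236), STC1 (chr8:23841929-23854806) and GEM (chr8:94249253-94262350) are on the minus strand of chromosome 8, far from each other. OSTN (chr3:191199241-191265615, plus strand) and ADAMTS9 (chr3:64515654-64688000, minus strand) share chromosome 3. SERPINF1 is at chr17:1762029-1777565 on the plus strand, AMIGO2 at chr12:47075707-47079959 on the minus strand and PRR5L at chr11:36296288-36465204 on the plus strand. These intervals span whole genes, exons and introns together.

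FABP4 had the highest level of the 8 in uL3Δ vehicle libraries, in CPM and per length. In parental vehicle libraries it had 8, 12 and 3 counts, which is 0.519, 0.826 and 0.181 CPM. In uL3Δ vehicle libraries it had 10746, 19541 and 14146 counts, or 863, 978 and 955 CPM. The group means were 0.509 ± 0.323 and 932.0 ± 60.7 CPM (SD, n = 3 each), so that the parental level was 0.0546% of the uL3Δ level. With Act D the parental libraries rose to 114, 91 and 64 counts (7.10, 6.15 and 5.15 CPM), all above the vehicle libraries, while the uL3Δ libraries were at 1026, 1089 and 1047 CPM. Per length, on the deposited TPM scale, FABP4 ranked at place 70 of 19882 protein-coding genes in uL3Δ vehicle libraries and at place 60 with Act D.

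The secreted factors follow in order of role, not of level. OSTN had 6, 1 and 3 counts in parental vehicle libraries (0.389, 0.0689 and 0.181 CPM) and 161, 250.3 and 228 CPM in uL3Δ vehicle libraries, a wider spread than for the other abundant members. With Act D it was at 1.37, 1.22 and 1.77 CPM in the parental line and at 249.4, 299 and 257 CPM in the uL3Δ line. The parental Act D libraries, at 21.6, 18 and 22 counts, were all above the parental vehicle libraries.

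STC1 had 11, 6 and 4 counts in parental vehicle libraries (0.713, 0.413 and 0.242 CPM) and 16, 12 and 14 counts with Act D (0.997, 0.811 and 1.13 CPM). In uL3Δ libraries it was at 107, 114 and 110.4 CPM with vehicle and at 106, 117 and 105 CPM with Act D, so that these ranges overlap. It was among the members with the least spread, with a coefficient of variation of 2.93% over the uL3Δ vehicle libraries, against 21.8% for OSTN.

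SERPINF1 was at 0.389, 0.689 and 0.664 CPM (6, 10 and 11 counts) in parental vehicle libraries and at 1.06, 1.28 and 1.29 CPM with Act D. In uL3Δ libraries it was at 124, 124 and 118 CPM with vehicle and at 136, 136 and 130.3 CPM with Act D, without overlap. ADAMTS9 was the one member with 0 counts in all 3 parental vehicle libraries, which allows up to 0.0645 CPM for a floor of 3 counts over the group. With Act D it had 2, 4 and 6 counts in the parental line. In uL3Δ libraries it was at 39.3, 30.3 and 33.3 CPM with vehicle and at 35.3, 32.8 and 30.03 CPM with Act D, which overlap.

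The genes for the adhesion protein and for the intracellular regulators differed in how near to absent they were. AMIGO2 was at 1.10, 0.689 and 0.664 CPM (17, 10 and 11 counts) in parental vehicle libraries and at 2.12, 1.28 and 2.25 CPM with Act D. In uL3Δ libraries it was at 198, 197 and 189.7 CPM with vehicle and at 116, 133 and 138 CPM with Act D, so that the Act D libraries were all below the vehicle libraries. GEM had the highest parental level of the 8 in CPM: it had 90, 78 and 100 counts in parental vehicle libraries (5.83, 5.37 and 6.04 CPM), against 223, 245 and 226 CPM in uL3Δ vehicle libraries. With Act D it was at 13.0, 12.3 and 10.2 CPM in the parental line and at 225, 245 and 233 CPM in the uL3Δ line.

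PRR5L was the member with the lowest level in the uL3Δ libraries, at 7.71, 6.70 and 5.47 CPM with vehicle and 4.36, 3.77 and 5.10 CPM with Act D. It had 1, 4 and 7 counts in parental vehicle libraries and 0 counts in all 3 parental Act D libraries, which allows up to 0.0693 CPM. It is thus well expressed only in comparison with the parental line, and its vehicle and Act D ranges do not overlap in either line.

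**Figure D1:**
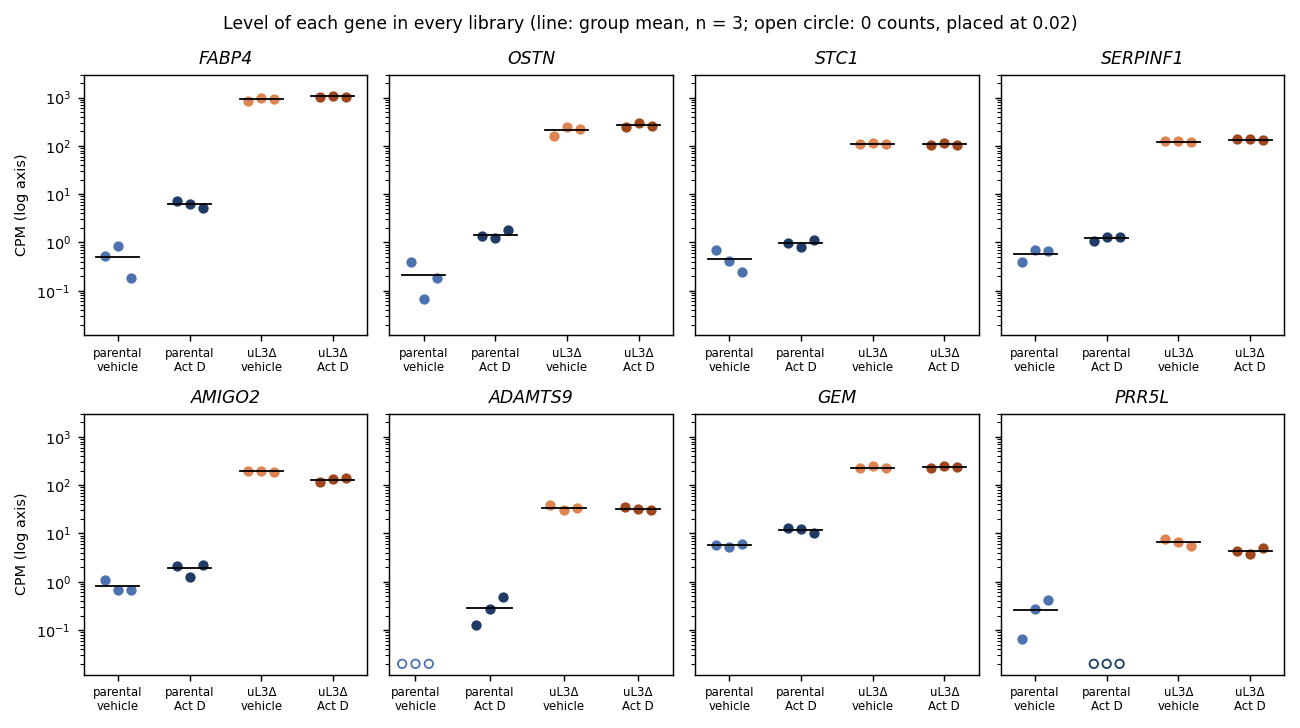
Level of each of the 8 genes in all 12 libraries, in CPM on a log axis, by group. Points are libraries, horizontal lines are means of 3 libraries and open circles are libraries with 0 counts. The uL3Δ libraries lie far above the parental libraries in every panel, with the smallest vehicle gaps for GEM and PRR5L, and 7 of the 8 genes are higher in the parental Act D than in the parental vehicle libraries.

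In folds, the line difference with vehicle, which chose the genes, was 1832 for FABP4 and 1000.4 for OSTN, where the parental level rests on 23 and 10 counts summed over 3 libraries. The OSTN value rests on 1 library: without replicate 1 of the parental vehicle group it was 1704.2, or 1.7 times as large. Leaving out any other parental library moved no member's line difference by more than 1.5 times, except that the bounds against 0 counts were not computed this way. The line difference was 242 for STC1, 238 for AMIGO2, 210.1 for SERPINF1, 40.2 for GEM and 26.1 for PRR5L. ADAMTS9 was at least 532-fold higher against the floor of 3 counts over the group. Over all genes tested, 35.1% were higher in this direction, and nothing is read from the members' place among them. Counting error alone left the parental vehicle level of FABP4 between 0.313 and 0.742 CPM and that of OSTN between 0.103 and 0.395 CPM (95% exact Poisson intervals on the summed counts, which cover counting error only).

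Ordered by TPM, which corrects for transcript length, the uL3Δ vehicle means ran from FABP4 (803 ± 79.2 TPM) to OSTN (79.1 ± 5.75), GEM (63.1 ± 5.41), SERPINF1 (62.8 ± 5.94), AMIGO2 (33.0 ± 4.08), STC1 (16.0 ± 1.70), ADAMTS9 (3.80 ± 0.961) and PRR5L (2.77 ± 0.654; SD, n = 3 each). The library ranges of GEM and SERPINF1 overlap, as do those of ADAMTS9 and PRR5L, and the other neighbours in this order are separate. OSTN ranked at place 556 of the protein-coding genes, AMIGO2 at 1390, STC1 at 2822, ADAMTS9 at 7220 and PRR5L at 8124. The 8 genes together made up 8.33 to 9.01 CPM in parental vehicle libraries, 22.3 to 25.7 CPM in parental Act D libraries, 1723 to 1945 CPM in uL3Δ vehicle libraries and 1898 to 2056 CPM in uL3Δ Act D libraries.

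The response to Act D within the uL3Δ libraries was not used to choose the genes, and it was tested with edgeR's quasi-likelihood test across all 15692 genes with Benjamini-Hochberg adjustment. AMIGO2 fell and the other members did not pass: 0 of 8 were higher, 1 was lower and 7 passed in neither direction. Over all genes tested, 3.51% were higher and 8.40% lower in this comparison. AMIGO2 dropped by 0.60 on the log2 scale (SE 0.10, adjusted p = 0.000626), to 66.3% of its vehicle mean, in 3 of 3 libraries. PRR5L had a change of the same size, -0.59, but with an SE of 0.27 on 33 to 60 counts per Act D library, and its adjusted p was 0.193.

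OSTN had a log2 fold change of 0.33 (SE 0.13, adjusted p = 0.119). Without replicate 2 of the uL3Δ vehicle libraries, the deepest of all 12, it was 0.46 and passed (adjusted p = 0.0409), so that its call rests on that library. FABP4 was at 0.18 (SE 0.11, adjusted p = 0.326) and SERPINF1 at 0.14 (SE 0.08, adjusted p = 0.291), although the libraries of the treatment groups did not overlap for either gene. STC1 (-0.02, SE 0.09), GEM (0.02, SE 0.08) and ADAMTS9 (-0.06, SE 0.13) had the smallest changes, with adjusted p of 0.933, 0.973 and 0.872. In all, 2 members were higher and 2 lower without overlap between the groups, where 12.8% and 14.8% of all genes were.

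**Figure D2:**
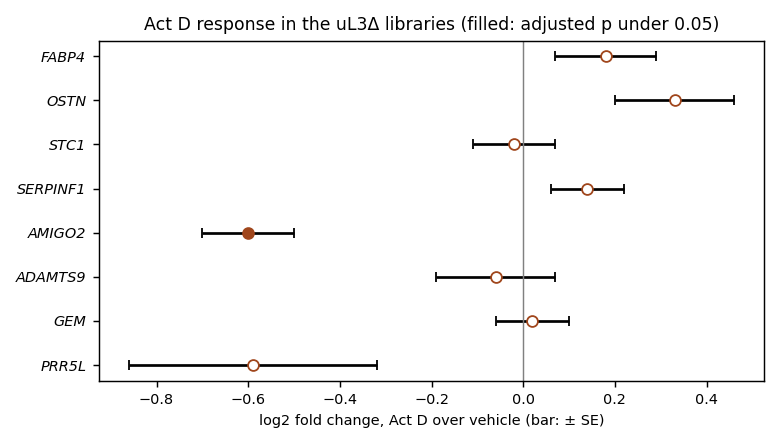
Log2 fold change of the 8 genes with Act D over vehicle in the uL3Δ libraries, with bars of 1 SE derived from the F statistic of the fit across all genes (3 libraries per group). Only AMIGO2, at -0.60, is filled as past an adjusted p of 0.05, and PRR5L lies at the same place with a wider bar.

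RSEM also gives an abundance-weighted transcript length for each gene, which moves when the mixture of transcripts does. For OSTN it was 1413, 1684 and 1595 bases in uL3Δ vehicle libraries and 1763, 1836 and 1804 bases with Act D, so that the Act D libraries were all higher. On the TPM scale OSTN was accordingly level, at 79.1 ± 5.75 with vehicle and 82.1 ± 9.83 with Act D, while on the CPM scale its means were 213.0 ± 46.4 and 268 ± 26.6 (SD, n = 3 each). For AMIGO2 the lengths overlapped, at 3214 to 3380 bases with vehicle and 3251 to 3358 bases with Act D, and its TPM were lower too, at 33.0 ± 4.08 and 20.5 ± 1.22. The lengths of the other 6 members also overlapped between the treatments in the uL3Δ libraries.

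In the parental line 7 of the 8 genes were higher in every Act D library than in any vehicle library, and PRR5L was lower. Over all genes tested, 18.2% were higher and 20.0% lower without overlap. Because the vehicle libraries chose the genes for being low, a rise is favoured by the choice, and no test is given. FABP4 was 12.1-fold and OSTN 6.82-fold higher with Act D, and the folds of AMIGO2 (2.30), STC1 (2.15), SERPINF1 (2.08) and GEM (2.06) were close to each other. The value of OSTN was 11.62 without replicate 1 of the parental vehicle group, and that of FABP4 was 17.53 without replicate 2 of that group. ADAMTS9 went from 0 to 12 counts over 3 libraries.

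Even so, the parental Act D libraries stayed far below the uL3Δ Act D libraries. The share of the uL3Δ level was 0.582% for FABP4, 0.541% for OSTN, 0.895% for STC1, 0.901% for SERPINF1, 0.894% for ADAMTS9 and 1.46% for AMIGO2. It was 5.04% for GEM and 0 for PRR5L. With vehicle it was 0.0546% for FABP4, 0.100% for OSTN, 0.413% for STC1, 0.476% for SERPINF1, 0 for ADAMTS9, 0.420% for AMIGO2, 2.49% for GEM and 3.84% for PRR5L, so that GEM and PRR5L had the highest shares with vehicle. In folds the lines differed with Act D by 172 for FABP4, 185 for OSTN, 112 for STC1, 111.0 for SERPINF1, 112 for ADAMTS9, 68.5 for AMIGO2 and 19.8 for GEM, and by at least 63.6 for PRR5L against the floor over the group. The summed mesenchymal markers were also higher in the parental Act D libraries, at 40.2 to 63.9 CPM, against 32.2 to 39.0 CPM with vehicle. VIM, their largest part, overlapped between these groups, at 23.9 to 45.2 CPM with Act D and 19.7 to 25.9 CPM with vehicle. The summed colon epithelial markers were higher with Act D too, at 2684.0 to 2813.8 CPM against 2480.5 to 2682.2 CPM. The part of either list in these levels was not tested.

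**Figure D3:**
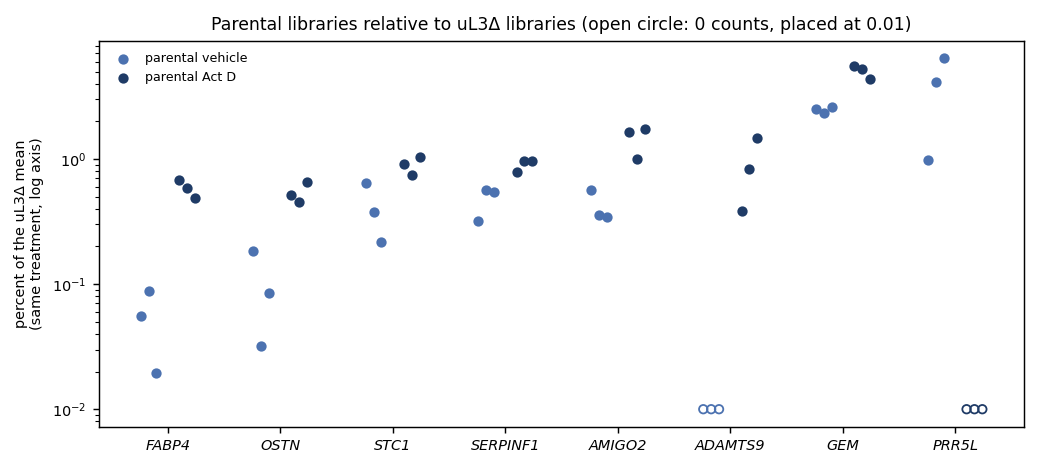
Level of the 8 genes in each parental library as a percentage of the mean of the uL3Δ libraries with the same treatment, on a log axis. Light points are vehicle libraries, dark points Act D libraries and open circles libraries with 0 counts. With Act D the 6 genes from FABP4 to ADAMTS9 lie between 0.381% and 1.74%, below GEM.

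The same pattern was looked at in other genes. Taking the limits of 6 members (all but GEM and PRR5L), which were set after their values had been seen, 23 other genes had a parental vehicle level of at most 0.476% of the uL3Δ level and at least 32.7 CPM in both uL3Δ groups. Their median parental share was 0.282% with vehicle and 0.760% with Act D, with the middle 80% of the Act D shares between 0.474% and 1.30%, and 15 of the 23 were higher without overlap in the parental Act D libraries, where 18.2% of all genes were. A low vehicle share was asked for, so that a rise is favoured by the choice, and nothing is read from this count. In the opposite direction, 8 genes of the parental line met the same limits in the uL3Δ libraries, and their median share there was 0.374% with vehicle and 0.583% with Act D, with 1 of 8 higher without overlap.

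Many genes share the wider description. Within the limits that all 8 set, at most 5.75 CPM in parental vehicle libraries and at least 4.41 CPM in both uL3Δ groups, lay 1087 genes. In this set FABP4 was the second most abundant in uL3Δ vehicle libraries, GEM the sixth, OSTN the seventh and AMIGO2 the eighth, SERPINF1 was at place 18, STC1 at 19, ADAMTS9 at 106 and PRR5L at 765. The other 1079 genes had a median parental share of 19.7% with vehicle and 21.3% with Act D (quartiles 4.68% and 46.1%). The median of the 8 was 0.416% with vehicle and 0.895% with Act D, while GEM, at 5.04% with Act D, lay above that lower quartile. The 8 were chosen for a low parental level, so that a lower share is favoured by the choice and nothing is read from it. Of these 1079, 20.8% were higher and 7.51% lower without overlap in parental Act D libraries, and in the uL3Δ libraries 3.99% were higher and 3.89% lower with Act D.

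The genes whose pattern over the 12 libraries was most like the mean of the 8, by Pearson's r on log2(CPM + 1), included TPM1 (r = 0.9990), SPOCD1 (0.9990), CBR1 (0.9989) and SNRPN (0.9988). CBR1, a carbonyl reductase, was at 0.194 ± 0.113 CPM in parental and 38.0 ± 0.647 CPM in uL3Δ vehicle libraries, and SNRPN, an imprinted gene for a small nuclear ribonucleoprotein, at 0.425 ± 0.173 and 167 ± 9.71 CPM (SD, n = 3 each). With Act D, CBR1 was at 0.726 ± 0.143 CPM and SNRPN at 1.22 ± 0.363 CPM in the parental line. As the profile is almost a contrast of 6 libraries with 6 others, 469 genes reached an r of 0.99, and PRR5L itself reached only 0.9692.

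Relatives and partners of each member were compared between the lines in lists drawn up by function, with the members left out. Across all genes tested, 35.1% were higher and 36.2% lower in uL3Δ than in parental vehicle libraries, and 35.1% and 35.3% with Act D, so that many genes of any list pass. Among fatty acid-binding proteins and partners of PPARγ, 11 of 21 tested genes were higher, 6 lower and 4 neither, with a median log2 fold change of 0.64, against -0.02 over all genes. PPARG itself, the receptor that drives FABP4 in fat cells, was at 10.5 ± 0.951 CPM in parental and 153 ± 19.3 CPM in uL3Δ vehicle libraries, a log2 fold change of 3.87 (SE 0.11, adjusted p = 3.21e-15). PLIN2, which coats lipid droplets, was higher by 1.98, while PPARA (-2.05) and the bile acid carrier FABP6 (-3.61) were lower. The paralog FABP3 was at 0 CPM in parental and 5.79 ± 0.625 CPM in uL3Δ vehicle libraries (adjusted p = 1.1e-09). No fold is given for it, as none can be measured against 0 counts. CD36, a fatty acid transporter, and PLIN4, another lipid droplet protein, were higher as well (4.31 and 3.98), both picked after their values were seen. The other genes of the list that were lower were PPARD (-0.86), RXRA (-0.65), CEBPA (-1.36) and DGAT1 (-0.63). With Act D, RXRA was higher in the uL3Δ libraries (0.78, SE 0.16, adjusted p = 0.000299), while PPARD, CEBPA and DGAT1 were lower there too. In the parental line RXRA went from 32.8 CPM with vehicle to 8.99 CPM with Act D. LPL and PLIN1 could not be tested.

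The 7 adipocyte markers listed summed to 11.84 to 14.39 CPM in parental vehicle libraries and 132.2 to 165.9 CPM in uL3Δ vehicle libraries, nearly all of it from PPARG. Of the 2 that could be tested, PPARG was higher and GPD1, a glycerol phosphate dehydrogenase, was lower (-1.22), and PPARG alone exceeded 1 CPM on average in uL3Δ vehicle libraries. ADIPOQ, the adipocyte hormone adiponectin, was at 0 to 0.161 CPM there, and LEP, for leptin, had 0 counts in all 4 groups. Endothelial markers summed to at most 3.31 CPM in any library, with CLDN5 at 0 counts in all 4 groups. Of the 3 that could be tested, 2 were higher and 1 was lower in the uL3Δ libraries with vehicle. The bone and muscle markers, listed because OSTN is known from those tissues, summed to 11.5 to 14.8 CPM in uL3Δ vehicle libraries and 2.07 to 3.99 CPM in parental vehicle libraries, with MYOG and MYF5 at 0 counts in all 4 groups. Only 2 of them could be tested, and 2 were higher in the uL3Δ libraries with vehicle, with a median log2 fold change of 2.42.

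In the natriuretic peptide system, to which OSTN belongs, 6 of 11 tested genes were higher and 5 lower. The convertases FURIN (log2 fold change 1.65) and PCSK6 (1.2) were higher, and PCSK5 (-4.38) and the cyclic GMP phosphodiesterase PDE9A (-2.06) were lower. Around STC1, 8 of 11 tested genes of the stanniocalcin, pappalysin and insulin-like growth factor axis were higher, 2 lower and 1 neither, with a median of 1.87. Its paralog STC2 was present in both lines, at 102 ± 8.66 CPM in parental and 305 ± 20.0 CPM in uL3Δ vehicle libraries (log2 fold change 1.58, SE 0.08, adjusted p = 1.23e-11). IGFBP4, a binding protein that pappalysin cuts, was higher by 8.44, from 0.129 to 48.0 CPM, and IGFBP2 (-2.27) and IGFBP6 (-0.52) were lower.

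Serpins were split, with 5 of 14 tested genes higher, 4 lower and 5 neither, and a median of -0.28. SERPINE2 (1.73), which blocks plasminogen activators and thrombin, was higher, and SERPINB5, known as maspin, was lower by 7.49, from 81.9 ± 7.95 to 0.478 ± 0.204 CPM (SE 0.20, adjusted p = 1.62e-15). SERPINB9, an inhibitor of granzyme B, was also lower (-3.35). Of 19 regulators of angiogenesis tested, a list drawn up for SERPINF1, STC1 and ADAMTS9, 15 were higher, 3 lower and 1 neither, with a median of 1.13. The receptor NRP1 (3.84) and the metalloprotease inhibitor TIMP3 (3.97) were higher, and VASH1 (-2.63) and the collagen chain COL4A3 (-3.50) were lower. They act on vessel growth in opposite directions, so that the count gives no direction for angiogenesis.

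Among ADAMTS proteases and their matrix substrates, 5 of 16 tested genes were higher, 7 lower and 4 neither. ADAMTS12 was the relative that most resembled ADAMTS9, at 0.0417 ± 0.0362 CPM in parental and 10.1 ± 1.42 CPM in uL3Δ vehicle libraries (log2 fold change 7.60, SE 0.40, adjusted p = 9.56e-12), and the substrate gene FN1, for fibronectin, was higher by 3.46. ADAMTS14 (-5.27) and ADAMTS17 (-6.38) showed the reverse pattern, at 12.5 and 6.04 CPM in parental but 0.297 and 0.0660 CPM in uL3Δ vehicle libraries. The proteoglycan substrate gene VCAN was also lower, by 1.66, from 59.3 ± 6.02 to 18.8 ± 2.02 CPM (SE 0.11, adjusted p = 1.76e-10). Among AMIGO and other leucine-rich repeat adhesion proteins, 6 of 10 tested genes were higher and 4 lower, with a median of 2.06. LRIG1 (3.02) and SLITRK6 (5.66) were higher, and LINGO1 (-3.67) and LRRN2 (-5.71) were lower.

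For GEM, 9 of 18 tested RGK GTPases, calcium channel subunits and further partners were higher, 7 lower and 2 neither. Among the calcium channel subunits, CACNA2D1 (7.06) and CACNA2D4 (4.31) were higher, and CACNA1B (-5.10) and CACNA2D2 (-4.21) were lower. CACNA2D1 was at 0.259 ± 0.0170 CPM in parental and 35.6 ± 4.81 CPM in uL3Δ vehicle libraries. Of the β subunits, to which RGK proteins bind, CACNB4 was higher (1.14), CACNB3 lower (-0.45) and CACNB1 neither (0.00, adjusted p = 0.998), and CACNB2 could not be tested. For PRR5L, 4 of 17 tested genes of mTORC2 and its partners were higher, 6 lower and 7 neither. The kinase gene PRKCA (1.55) was higher. PRR5, the close paralog of PRR5L, was lower by 2.08, at 19.8 ± 3.91 CPM in parental and 4.74 ± 1.41 CPM in uL3Δ vehicle libraries (SE 0.19, adjusted p = 1.73e-08), so that the paralogs moved in opposite directions, and MTOR itself was lower (-1.14).

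With Act D, 12 genes were higher and 6 lower around FABP4, 6 and 5 around OSTN, 8 and 2 around STC1, 5 and 6 among serpins, 14 and 3 among regulators of angiogenesis, 6 and 6 around ADAMTS9, 6 and 4 around AMIGO2, 7 and 6 around GEM, and 6 and 4 around PRR5L.

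**Figure D4:**
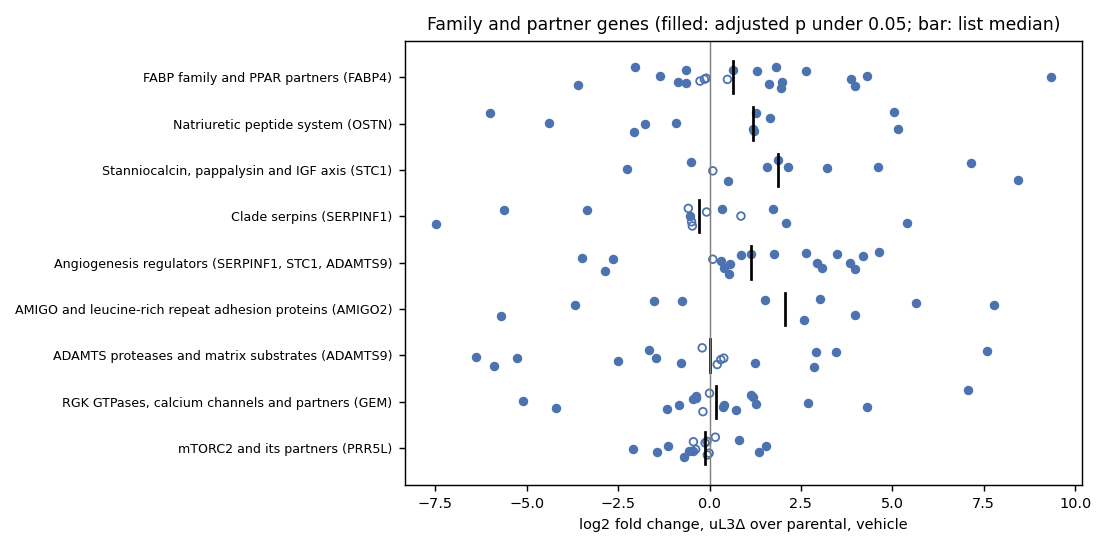
Log2 fold change of uL3Δ over parental libraries with vehicle for the reported genes of the 9 lists of relatives and partners, 3 libraries per group, with the members themselves left out. Filled points passed an adjusted p of 0.05, open points did not, and vertical bars are medians of all tested genes of a list. Each list holds genes on either side of 0, with medians from -0.28 for serpins to 2.06 for the relatives of AMIGO2.

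Finally, the chromosomal surroundings were compared, a property the choice of the genes did not use. The nearest 2 tested protein-coding genes on each side, by start position, gave 32 neighbours. With vehicle 16 were higher in the uL3Δ libraries, 8 lower and 8 neither, with a median log2 fold change of 0.23, where 35.1% and 36.2% of all genes passed. With Act D 18 were higher, 8 lower and 6 neither. With scaling by library size alone, 13 were higher and 13 lower with vehicle, and 13 were higher and 9 lower with Act D.

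The neighbourhoods differed among the members. Near OSTN, CLDN1, a tight junction protein, was higher by 9.02 (SE 0.27, adjusted p = 7.02e-15), from 0.131 ± 0.171 to 71.7 ± 7.18 CPM. The receptor chain IL1RAP (3.27) and CCDC50 (3.36) were higher as well, and UTS2B, the nearest, was lower (-1.58). Near AMIGO2, the amino acid transporter SLC38A4 was higher by 9.10 (SE 0.26, adjusted p = 2.89e-15), from 0.0863 ± 0.0378 to 52.2 ± 9.0 CPM, whereas its neighbour and relative SLC38A2 was alike in both lines, at 582 ± 53.7 and 574 ± 71.6 CPM. PCED1B (5.87) was higher too, but at 1.75 CPM in uL3Δ vehicle libraries, and its annotated start at 47079603 lies inside AMIGO2, with the genes on opposite strands. The library kit named in the labels does not record strand in its standard form, so that reads from the shared stretch cannot be told apart.

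Near FABP4, PAG1 (3.61) and the paralog FABP5 (1.83) were higher. FABP5 was abundant in both lines, at 119 ± 5.23 and 421 ± 17.6 CPM, in contrast to FABP4. Near STC1, ADAM28 had 0 counts in parental vehicle libraries and 2.81 ± 0.555 CPM in uL3Δ vehicle libraries. Near PRR5L, COMMD9 (1.19) and RAG1 (1.43) were higher, RAG1 at no more than 2.24 CPM on average with vehicle. Near SERPINF1, WDR81 was lower (-1.06). Near GEM, PDP1, a phosphatase of the pyruvate dehydrogenase complex, was lower by 4.34 (SE 0.12, adjusted p = 1.61e-15), from 908 ± 80.8 to 44.8 ± 6.85 CPM. No neighbour of ADAMTS9 changed by as much as 1 on the log2 scale with vehicle.

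**Figure D5:**
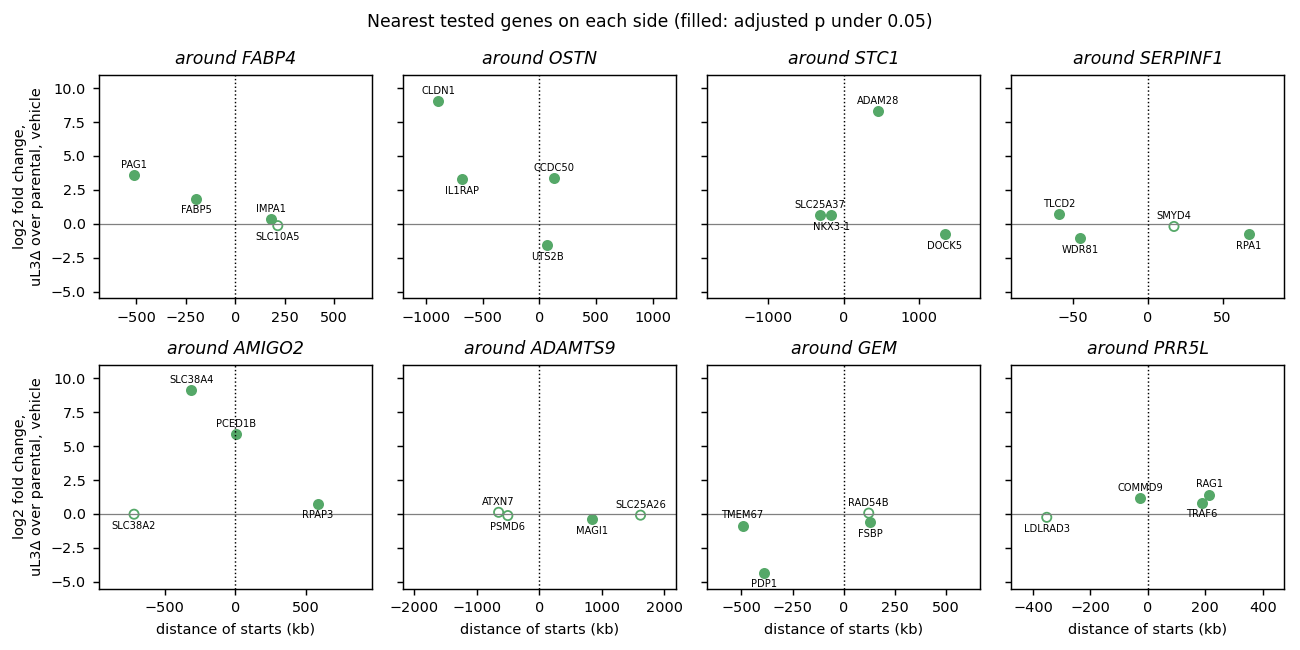
Log2 fold change of uL3Δ over parental libraries with vehicle for the nearest tested genes on each side of each member, against the distance between gene starts in kb along the chromosome, 3 libraries per group. Filled points passed an adjusted p of 0.05 and dotted lines mark the member. CLDN1 near OSTN and SLC38A4 near AMIGO2 lie above 8, and PDP1 near GEM lies at -4.34. ADAM28 near STC1 is drawn above 8 as well. It had 0 counts in parental vehicle libraries, so that its place is not a measured size.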

How the data were processed

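RNA-seq was analysed for 12 libraries. According to the study's methods and the labels, the authors trimmed reads, removed contaminants and used RSEM 1.2.25 on the hg38 build, with Ensembl genes. The authors deposited expected counts, not normalized, beside TPM values. A deposited transcript length in bases and a posterior standard deviation of the count are scored per gene. For replicate 2 of the parental vehicle group the deposited values are per transcript and were summed per gene. Expected counts were rounded, filtered with filterByExpr (15692 of 33990 genes) and scaled by TMM. All 12 libraries were fitted together with edgeR 4.0.16 (quasi-likelihood test, R 4.3.3), with Benjamini-Hochberg adjustment over all genes tested and a threshold of 0.05. The SE of a log2 fold change was derived from the test, as its size without sign divided by the square root of the F statistic. CPM refer to TMM-scaled library sizes, and TPM was used only to compare genes per length. Gene coordinates came from GENCODE, with 60261 of 60617 identifiers matched. At the depth of 10087925 to 21138886 counts, 3 counts over a group were taken as the floor, which covers counting error only.

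The members and the lists were chosen with earlier results of these data known. Beside the members, the text names RPL3, up to 2 genes per list and direction with the smallest p with vehicle, neighbours past the threshold with a log2 fold change of at least 1, and the 5 most similar genes by r. FABP5, SLC38A2, CD36, PLIN4, the β subunits of GEM's list, the marker genes and the 23 and 8 genes of the shares were added after their values were seen. So were FABP3, PPARD, RXRA, CEBPA, DGAT1, LPL, PLIN1 and VCAN. Some genes that this rule names are not reported here. Alternatives were DESeq2 1.42.0, other scalings and filters, a replicate block, the 2 groups compared alone, and each library left out.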

Additional observations from a re-analysis of the deposited data

Results flagged for a closer look

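AMIGO2 moved in opposite directions with Act D in the 2 lines. It dropped by 0.60 on the log2 scale in the uL3Δ libraries, where all 3 Act D libraries were below all 3 vehicle libraries, and it was 2.30-fold higher in the parental line, at 0.664 to 1.10 CPM with vehicle and 1.28 to 2.25 CPM with Act D. The difference between these responses was not tested, because the parental vehicle libraries chose the gene as low.

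For the interaction term of the same edgeR fit, 4 of the relatives and partners named here for the smallest p with vehicle passed the threshold. This term gives the response to Act D in the uL3Δ libraries minus that in the parental libraries. The share of all genes that passed it is not given, so that nothing is read from the count. The 4 genes were named for the smallest p of the line difference with vehicle, which shares the vehicle libraries with this term. A smaller line difference with Act D is thus favoured by the choice. In all 4 it was smaller, from 8.44 to 5.70 on the log2 scale for IGFBP4, from 1.98 to 1.38 for PLIN2, from -6.38 to -3.60 for ADAMTS17 and from -2.08 to -0.86 for PRR5, and the term is given as a value only. IGFBP4 had an interaction of -2.74 (SE 0.66, adjusted p = 0.0184), with 0.129 and 0.754 CPM in parental libraries with vehicle and Act D and 48.0 and 37.9 CPM in uL3Δ libraries. PLIN2 had one of -0.59 (SE 0.13, adjusted p = 0.0101), from 28.9 to 33.1 CPM and from 113.8 to 86.4 CPM. ADAMTS17 had one of 2.78 (SE 0.65, adjusted p = 0.0184), from 6.04 to 3.96 CPM and from 0.0660 to 0.299 CPM, near the floor in the uL3Δ libraries. PRR5 had one of 1.22 (SE 0.29, adjusted p = 0.0184), from 19.8 to 6.87 CPM and from 4.74 to 3.74 CPM.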

How the results depend on the processing

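AMIGO2 was lower with Act D in the uL3Δ libraries under all 19 alternatives, with log2 fold changes from -0.71 to -0.53 and adjusted p from 3.46e-08 to 0.00663, and the number of members lower was 1 in each. The number of members higher was 0 to 1 with a library left out, the 1 being OSTN (0.46, adjusted p = 0.0409) without replicate 2 of the uL3Δ vehicle group. The number of neighbours lower with vehicle, 8 in the report, was 13 with scaling by library size alone, while the number higher went from 16 to 13. The median parental share with Act D, 0.895%, was 1.06% with library size alone and 0.728% to 0.922% with a parental Act D library left out. The median fold of Act D over vehicle in the parental line, 2.15 over the 7 members with counts, was 2.08 to 2.79 with a parental library left out, the highest without replicate 1 of the vehicle group. The counts for relatives and partners stayed within 1.5 times under all 18 alternatives. With the replicate block, 69 of these genes were higher and 44 lower with vehicle, and AMIGO2 was again the one member past the threshold (-0.60, adjusted p = 0.00235). Correlations of same-numbered libraries, by the numbers in the sample titles, were between -0.104 and 0.101. No shared deviation was thus seen, which cannot show whether the cultures were paired. Below about 10 counts per library, parental levels rest on counting error, and for PRR5L and ADAMTS9 depth limits what can be said of the parental line.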
